A study of Homo sapiens with 36 samples.

Results

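Cyclin-dependent kinase (CDK) inhibitors were examined in DU145 cells by ChIP-seq of Polycomb proteins and of H3K27me3, the histone mark that Polycomb repressive complex 2 (PRC2) deposits. The genes were the 7 members of both inhibitor families, taken by name out of 20163 protein-coding genes. CDKN1A (p21), CDKN1B (p27) and CDKN1C (p57) form the CIP/KIP family, which binds cyclin-CDK complexes. CDKN2A (p16INK4A and, from another start, ARF), CDKN2B (p15), CDKN2C (p18) and CDKN2D (p19) form the INK4 family, which binds CDK4 and CDK6. All peaks and regions from 10 kb upstream of a gene's start to its end were counted, in the hg19 assembly (GRCh37), and this span is called the gene's interval. DU145 is an established, androgen-independent prostate cancer line that is known to lack functional RB1, the protein that INK4 inhibitors act through. Cells carried a pLKO lentivirus with a control shRNA (shCTR) or with shPHF19L#4, an shRNA against the long isoform of PHF19 (PHF19L). Puromycin selection followed infection. The data used were 14 peak lists, 2 replicates each of PHF19, EZH2 and SUZ12 in shCTR cells and of H3K27me3 and MTF2 in shCTR and in shPHF19L#4 cells, and 5 DiffBind tables of regions with group means. A single shRNA stands for the depletion, and its effect on PHF19 cannot be checked from these lists.

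PRC2 holds EZH2, the methyltransferase, and SUZ12, a core subunit, and the Polycomb-like proteins PHF19 and MTF2 are accessory subunits that help to bring it to CpG-rich DNA. The locus that encodes p16INK4A, ARF and p15 is the textbook target of Polycomb among cell cycle genes: in young dividing cells it carries H3K27me3, and loss of the mark accompanies senescence. CDKN1C, an imprinted gene, is another inhibitor known to be silenced by EZH2 in several cancers.

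In shCTR cells, none of the 7 genes had an EZH2, SUZ12 or H3K27me3 peak in either replicate. Of all protein-coding genes, 3.56% and 5.47% had an EZH2 peak in replicates 1 and 2. For SUZ12 the shares were 1.22% and 1.05%, and for H3K27me3 22.5% and 16.7%. A peak in both replicates, a stricter count, was found for 2.51%, 0.283% and 15.0%. CDKN2A and CDKN2B, the classical Polycomb targets, had none of these peaks in control cells and no H3K27me3 after PHF19L depletion, and MTF2 was called in replicate 2 at CDKN2A alone of the pair. CDKN1C had no called H3K27me3 peak in control cells, where MTF2 was called in replicate 2 alone, and it had H3K27me3 and MTF2 peaks in both replicates of shPHF19L#4 cells, as 21.3% and 11.1% of protein-coding genes did. With a score of at least 100, its H3K27me3 was called in replicate 2 of shPHF19L#4 only. Over the 14 lists, CDKN1C had a peak in 5, CDKN2D in 3, CDKN1A, CDKN2A and CDKN2C in 2 each, CDKN1B in 1 and CDKN2B in 0. A missing peak means that none passed the authors' threshold. Read totals are not part of the lists, and the depth of the libraries is thus unknown.

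**Figure D1:**
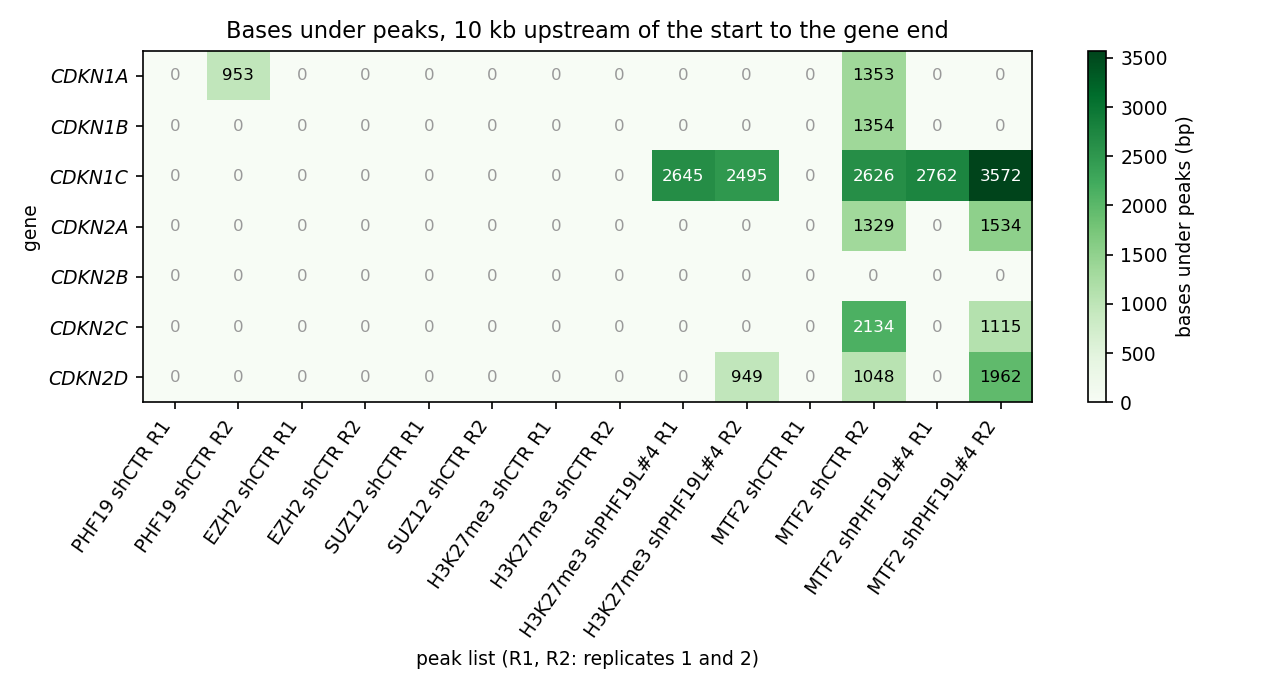
Bases under peaks in the interval of each gene (rows) in each of the 14 peak lists (columns), in bp. CDKN1C is the row with H3K27me3 in both shPHF19L#4 replicates (2645 and 2495 bp), and the EZH2, SUZ12 and shCTR H3K27me3 columns are 0 throughout.

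The start regions of INK4 genes with and without called peaks are shown for their CpG content. Promoters of 250 bases before to 50 after each start were taken from RefSeq (GRCh38.p14), which gave 9 promoters for 6 of the 7 genes, all but CDKN1C. Shown are the ARF start of CDKN2A, under an MTF2 peak of replicate 2 only; the INK4A start of the same gene and the start of CDKN2B, under no peak in any list; and the start of CDKN2D, with MTF2 peaks in replicate 2 and an H3K27me3 peak of 1 list just downstream. Peaks were placed by the start sites annotated on GRCh37. CpG dinucleotides are in capitals, and each sequence is on the minus strand.
CDKN2A, ARF start (chr9:21995275-21995574): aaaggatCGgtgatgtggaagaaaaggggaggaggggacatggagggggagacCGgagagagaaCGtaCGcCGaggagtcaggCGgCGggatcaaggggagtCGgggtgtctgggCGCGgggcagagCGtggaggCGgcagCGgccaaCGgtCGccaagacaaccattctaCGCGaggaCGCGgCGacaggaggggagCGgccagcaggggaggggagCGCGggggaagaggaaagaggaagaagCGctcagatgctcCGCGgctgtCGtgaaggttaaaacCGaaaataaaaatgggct
CDKN2A, INK4A start (chr9:21974808-21975107): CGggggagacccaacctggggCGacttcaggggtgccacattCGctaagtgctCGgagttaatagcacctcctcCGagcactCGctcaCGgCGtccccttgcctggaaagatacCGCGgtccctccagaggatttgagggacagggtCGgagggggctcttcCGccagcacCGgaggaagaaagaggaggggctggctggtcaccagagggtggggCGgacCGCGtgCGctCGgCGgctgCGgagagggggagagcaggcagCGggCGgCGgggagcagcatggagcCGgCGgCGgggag
CDKN2B (chr9:22009256-22009555): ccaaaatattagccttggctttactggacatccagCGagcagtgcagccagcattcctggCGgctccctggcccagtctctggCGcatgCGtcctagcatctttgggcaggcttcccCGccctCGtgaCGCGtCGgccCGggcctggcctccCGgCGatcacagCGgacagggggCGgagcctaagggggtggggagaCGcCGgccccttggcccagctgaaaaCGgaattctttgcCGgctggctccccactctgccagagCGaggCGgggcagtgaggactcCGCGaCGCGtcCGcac
CDKN2D (chr19:10568930-10569229): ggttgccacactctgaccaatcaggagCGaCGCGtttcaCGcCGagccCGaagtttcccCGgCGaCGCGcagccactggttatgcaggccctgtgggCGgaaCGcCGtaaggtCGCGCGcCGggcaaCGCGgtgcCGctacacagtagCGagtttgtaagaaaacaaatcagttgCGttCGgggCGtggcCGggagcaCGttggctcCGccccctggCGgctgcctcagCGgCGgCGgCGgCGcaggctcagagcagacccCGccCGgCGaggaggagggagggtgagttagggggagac

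The ARF start held 28 CpG in 300 bases, the INK4A start 26, CDKN2B 25 and CDKN2D 36. CDKN1A and CDKN1B, the p21 and p27 genes, held 29 each. The 3 start sites of CDKN2C differed, with 8, 37 and 11 CpG. Over all 35116 promoters of the table the median was 14, and the quartiles were 4.0 and 28. Of all promoters, 69.9% held no more CpG than that of CDKN2B, which had no peak in any list. The share was 71.8% for the INK4A start, 75.8% for the ARF start and 77.6% for CDKN1A.

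**Figure D2:**
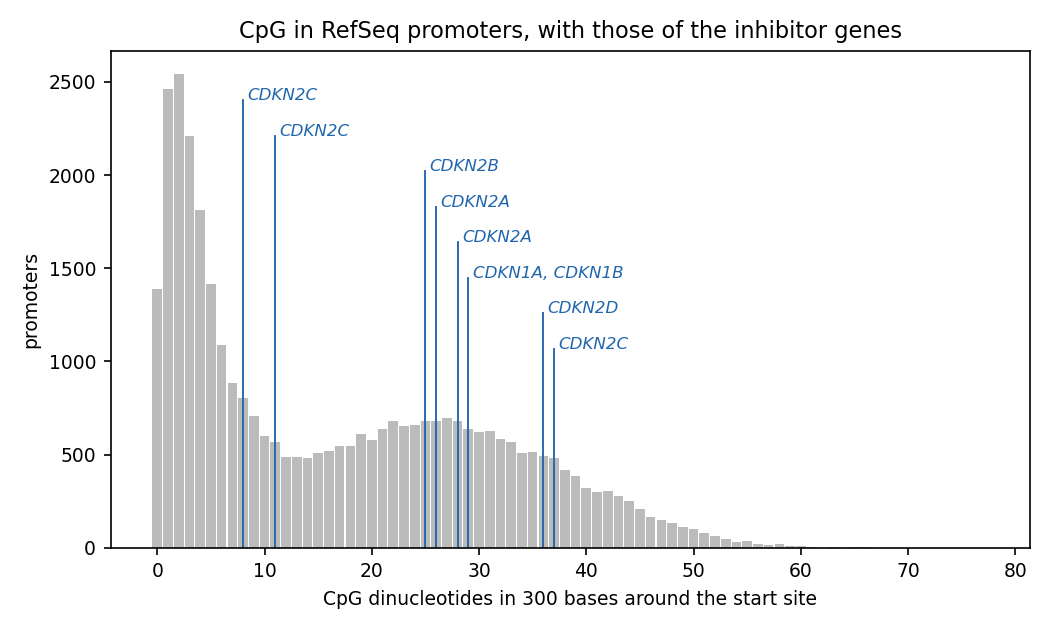
Number of RefSeq promoters (y axis) by CpG dinucleotides in 300 bases (x axis), with blue lines at the 9 promoters of the inhibitor genes. 7 of the 9 hold between 25 and 37 CpG, and a pair of CDKN2C promoters hold 8 and 11.

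The absence of called PRC2 peaks in control cells was read against all protein-coding genes. EZH2 peaks lay in the intervals of 0 of the 7 genes, against 3.56% of protein-coding genes in replicate 1, 5.47% in replicate 2 and 2.51% in both. SUZ12 gave 0 of 7, against 1.22%, 1.05% and 0.283%. Among genes with an interval no longer than that of the longest inhibitor, the SUZ12 share in replicate 1 was 0.706%. Both proteins were called at few genes in all. H3K27me3, the more widespread mark, also gave 0 of 7, against 22.5% in replicate 1, 16.7% in replicate 2 and 15.0% in both. PHF19 peaks gave 0 of 7 in replicate 1, against 4.09%, and 1 of 7 in replicate 2, CDKN1A, against 26.1%. No gene had a PHF19 peak in both, against 3.89%. These counts are a description, and no test was run on them.

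In shPHF19L#4 cells, H3K27me3 peaks lay at 1 of 7 genes in replicate 1 (CDKN1C), against 21.9% of protein-coding genes, and at 2 of 7 in replicate 2 (CDKN1C and CDKN2D), against 32.8%. CDKN1C was the 1 gene with a peak in both, against 21.3%. With 7 inhibitor genes, a single gene makes up 14.3%. H3K27me3 peaks covered 0 bp of the 7 intervals in each shCTR replicate, and 2645 and 3444 bp in the shPHF19L#4 replicates, so the conditions did not overlap at the authors' threshold. No test was run between the conditions, since with 2 replicates against 2 an exact two-sided permutation test cannot go below 0.333. CDKN1C made up all of the 2645 bp of replicate 1 and 2495 bp of the 3444 bp of replicate 2. With a score of at least 100, the replicate 1 peak, of score 91.2, was lost. That replicate then had 0 bp, as in shCTR, and the conditions were no longer apart. Of all protein-coding genes, 1.51% had no H3K27me3 peak in either shCTR list and a peak in both shPHF19L#4 lists. The replicate 2 list of shPHF19L#4 cells was also the longest, with 57026 peaks, against 35128 in replicate 1 and 39254 and 15994 in shCTR, and the part of list length in these counts was not tested.

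**Figure D3:**
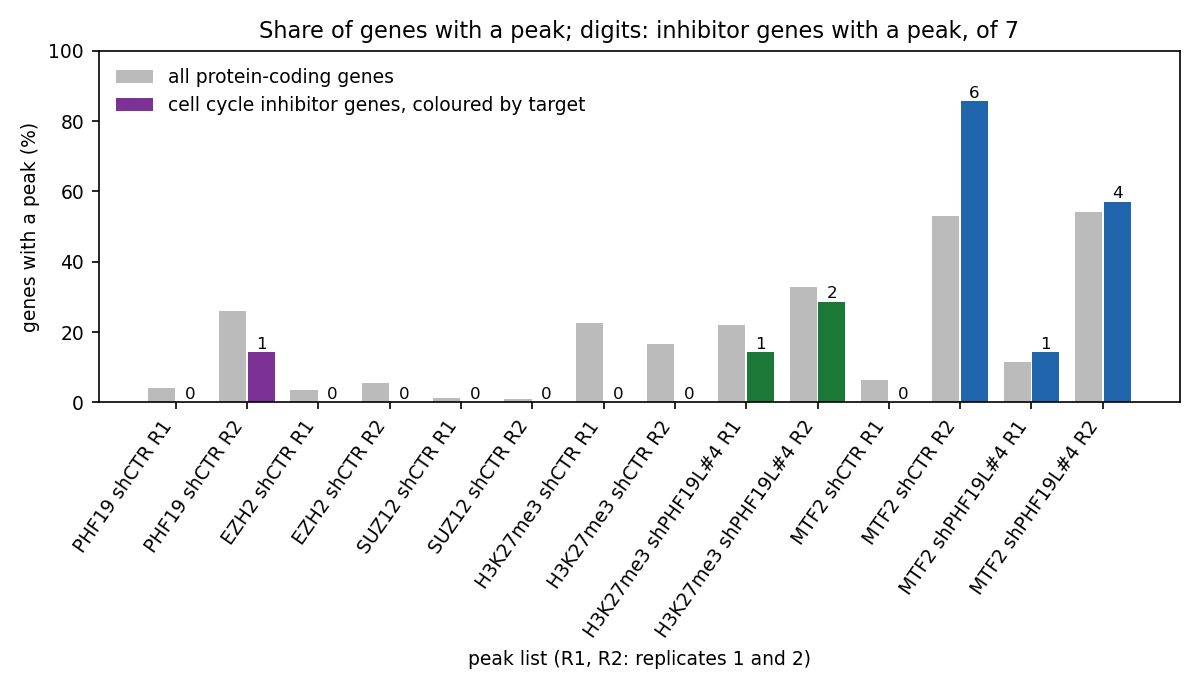
Percent of all protein-coding genes (grey bars) and of the 7 inhibitor genes (coloured bars, with their number) that had a peak in their interval, in each of the 14 peak lists. The inhibitor genes stand above the grey bar by the most in the MTF2 shCTR list of replicate 2 (6 of 7, or 85.7%, against 53.1%).

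The locus of CDKN2A and CDKN2B, like the genes CDKN1B and CDKN2C, had no H3K27me3 peak nearby in any list. CDKN2A lies on chromosome 9 from 21967751 to 21995300 and CDKN2B from 22002902 to 22009304, both on the minus strand and 7.60 kb apart, so that the interval of CDKN2A reaches into CDKN2B. From the start of CDKN2B, the nearest H3K27me3 peak was 436 kb away in shCTR replicate 1 and 472 kb in replicate 2, and 367 kb in each shPHF19L#4 replicate. All of these peaks were upstream and outside protein-coding genes. Over all protein-coding genes on chromosomes with a peak, the median distance from the start to the nearest H3K27me3 peak was 104 and 160 kb in shCTR, and 107 and 51.8 kb in shPHF19L#4. At least as far as CDKN2B were 16.0% and 26.2% of genes in shCTR, and 20.4% and 11.7% in shPHF19L#4. CDKN2B was farther from the nearest peak than the median gene in all 4 lists, and CDKN1B and CDKN2C were farther still in each of them, at 581 and 528 kb in shCTR replicate 1. CDKN1A was at 848 kb in that list and nearer than CDKN2B in the other 3. The nearest EZH2 peak was 5281 kb from CDKN2B in replicate 1 and 3744 kb in replicate 2.

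The neighbours of this locus had few H3K27me3 peaks as well. MTAP, which encodes an enzyme of methionine salvage and lies 30.1 kb downstream of CDKN2A, had no PHF19, EZH2, SUZ12 or H3K27me3 peak in any list. DMRTA1, a transcription factor gene 438 kb upstream of CDKN2B, had 1 H3K27me3 peak in replicate 1 of shCTR and 1 in replicate 2 of shPHF19L#4. CDKN2B itself shared its pattern of 0 peaks in 14 lists with 5978 other protein-coding genes (29.6%).

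CDKN1C was the inhibitor gene whose H3K27me3 calls differed between the conditions in both replicates. It lies on chromosome 11 from 2904443 to 2907005, on the minus strand, and its protein p57 restrains growth in the embryo. In H3K27me3 lists of shCTR cells it had no peak, and the nearest were 74.9 and 94.6 kb from its start, inside KCNQ1. In replicate 1 of shPHF19L#4 cells, a single H3K27me3 peak ran from 2904152 to 2907087, from position -82 relative to the start past the gene's end, with a MACS score of 91.2. In replicate 2, a pair of peaks covered nearly the same stretch, with scores of 171 (2906319 to 2907119) and 395 (2903910 to 2906136). The score of replicate 1 was at or above that of 41.0% of peaks in its list, and those of replicate 2 of 57.4% and 77.2%. Both replicates had the mark over nearly the whole gene, at a score below the middle of the list in replicate 1. With a minimum score of 100 the peak of replicate 1 was lost, and CDKN1C then had the mark in replicate 2 alone.

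MTF2 lay over the same stretch. Replicate 1, whose MTF2 lists hold positions only, had no peak at CDKN1C in shCTR and 1 peak in shPHF19L#4, from 2904043 to 2907204. Replicate 2 had a pair of peaks already in shCTR, with scores of 132 and 407, at or above 79.7% and 92.8% of its list, and in shPHF19L#4 1 peak from 2903911 to 2907292 with a score of 2716, at or above 96.4% of its list. A further peak of score 64.8 lay just upstream. Scores are not normalised between lists, so 407 and 2716 give no fold. No PHF19 peak of either shCTR replicate lay in the interval of CDKN1C, and the nearest were 740 and 440 kb from its start.

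**Figure D4:**
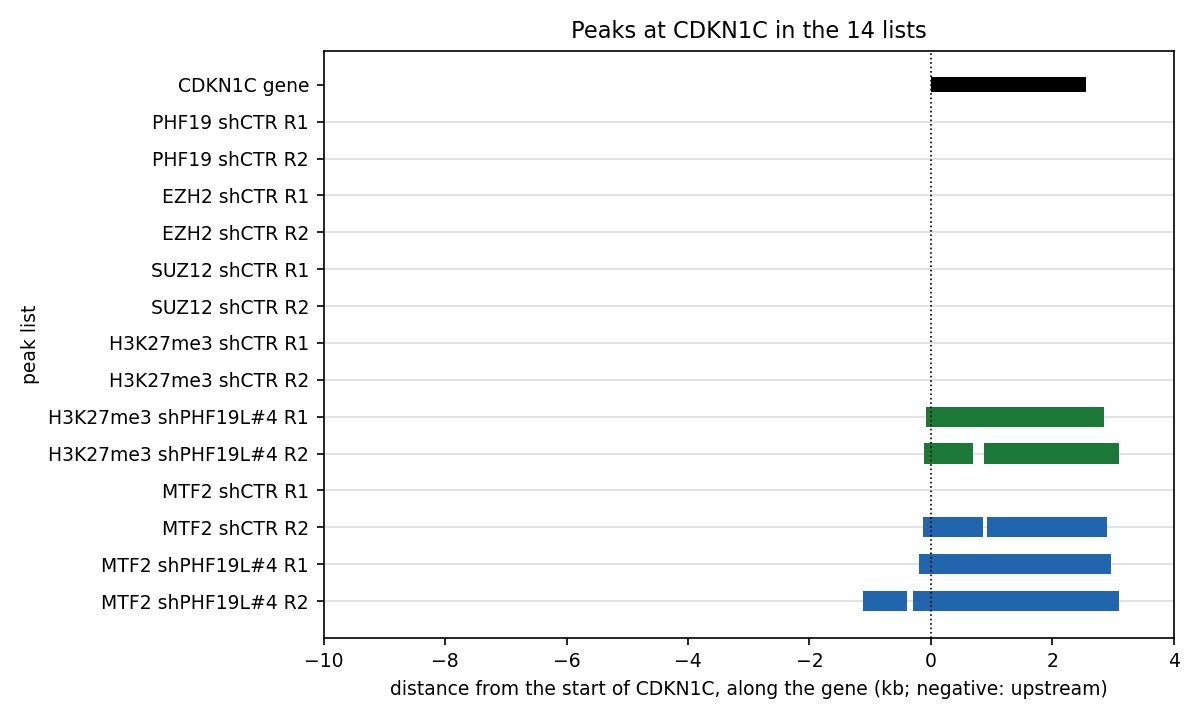
Peaks (bars, coloured by target) at CDKN1C in each of the 14 lists, by distance from the gene's start in kb, with the gene in black at the top. The H3K27me3 and MTF2 peaks of shPHF19L#4 cells span the gene in both replicates, and in shCTR only MTF2 replicate 2 has peaks there.

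Of all protein-coding genes, 304 (1.51%) had no H3K27me3 peak in either shCTR list and a peak in both shPHF19L#4 lists, and 1 of the 7 inhibitor genes, CDKN1C, did. A peak in both replicates of shPHF19L#4 but not in both of shCTR was found for 7.22% of genes with H3K27me3 and 5.64% with MTF2, and again for 1 of the 7 genes, CDKN1C, with each. The presence or absence over all 14 lists was the same as at CDKN1C in 36 other protein-coding genes (0.179%). No inhibitor gene had H3K27me3 in both shCTR replicates, so no gene was named for likeness to one.

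The DiffBind tables give the authors' mean log2 read concentration of each group at regions that passed their threshold, with no value per replicate. In all but the PHF19 table, that threshold was on the difference between shCTR and shPHF19L#4 itself. Ranks and medians in these tables thus compare regions already selected for a difference. CDKN1C was the inhibitor gene with regions in them: 1 of 7 in the EZH2 table, against 10.3% of protein-coding genes, 1 of 7 in the H3K27me3 table, against 4.02%, and 1 of 7 in the MTF2 table, against 9.72%. Regions in all 3 of these tables were found for 1 of 7, against 1.70%. The SUZ12 table held 0 of 7, against 2.64%, and the PHF19 table, which sets PHF19 against input in shCTR cells, 0 of 7, against 5.0%.

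At the EZH2 region of CDKN1C, which spans 2904516 to 2907319, the authors' mean log2 concentration was 5.10 in shCTR and 7.04 in shPHF19L#4, a difference of 1.94. This difference ranked 32 of the 2408 regions in the table, whose median difference was 1.16. The shCTR level was low for the table, with 13.8% of regions at or below it, and the shPHF19L#4 level of 7.04 was near the table's median of 7.29. The EZH2 level at CDKN1C was thus among the lower levels of the table in shCTR and close to the middle of it in shPHF19L#4. With no EZH2 peak in either shCTR list, the region could enter the table only through shPHF19L#4. A low shCTR level and a large difference were thus partly built in.

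For H3K27me3, the region from 2903910 to 2907119 had a mean log2 concentration of 6.05 in shCTR and 7.33 in shPHF19L#4. The shCTR level was typical of the table, with 55.9% of regions at or below it and a median of 5.90, although no peak was called there in either shCTR list. The difference of 1.28 ranked 302 of 1049, with a table median of 1.13. For MTF2, the region from 2904043 to 2907204 had 6.99 in shCTR, with 35.1% of regions at or below it, and 8.35 in shPHF19L#4. The limits of this region were those of the MTF2 peak of replicate 1 in shPHF19L#4. The region's difference of 1.36 ranked 90 of 2546, with a table median of 0.87. Among the 3 tables, the place of CDKN1C was thus highest for EZH2 and MTF2, in the top 1.33% and 3.53% of differences, and further down for H3K27me3, in the top 28.8%. The median difference of each table was itself positive, so a positive difference alone does not set CDKN1C apart. Each table was also selected on this difference, so these places hold among selected regions only.

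**Figure D5:**
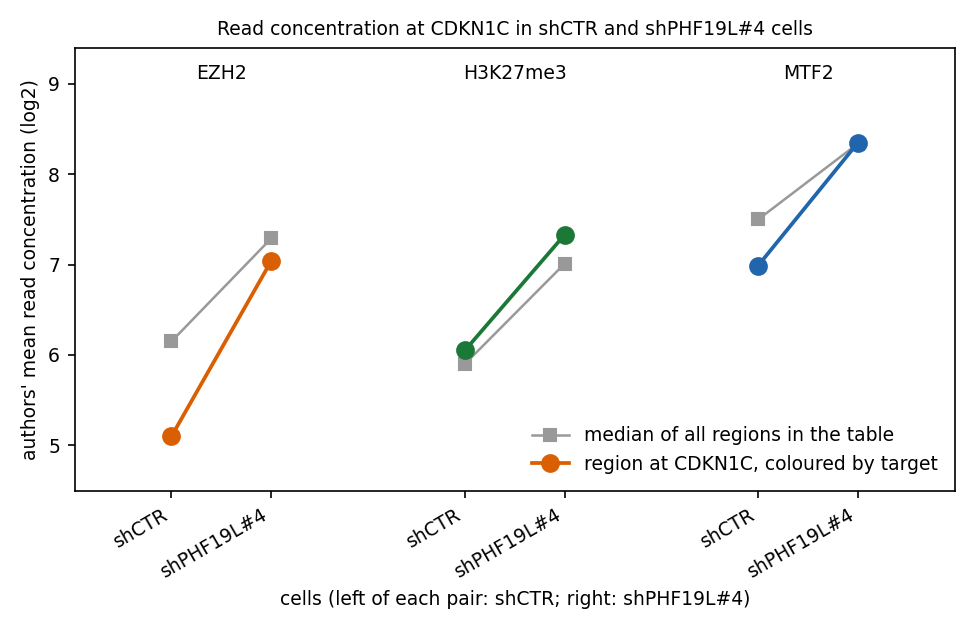
Authors' mean log2 read concentration (y axis) at the CDKN1C region in shCTR and shPHF19L#4 cells, for EZH2, H3K27me3 and MTF2 (coloured circles), with the median of all regions of each table (grey squares). The EZH2 region goes from 5.10 to 7.04 where the table's median goes from 6.15 to 7.29; group means carry no error bars.

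The genes on either side of CDKN1C differed from it in their H3K27me3 peaks. KCNQ1, a potassium channel gene 34.1 kb downstream, already had 12 and 5 H3K27me3 peaks in the shCTR replicates, and it had 8 and 19 in shPHF19L#4. These counts are over whole intervals and were not scaled to gene length. The nearest of the shCTR peaks were 74.9 and 94.6 kb from the CDKN1C start. SLC22A18, a transporter gene 13.9 kb upstream, had no H3K27me3 peak in any of the 4 lists. KCNQ1 had 2 H3K27me3 regions in the DiffBind table, the larger difference being 0.99. It also had 1 EZH2 region with a difference of 1.42 and 1 MTF2 region with 0.93, and SLC22A18 had no region in any table. Of the genes next to other inhibitors, AP1M2, 3.61 kb upstream of CDKN2D, had 1 H3K27me3 peak in each shCTR replicate, an EZH2 region with a difference of 1.47 and an MTF2 region with 0.83. SRSF3 and RAB44 beside CDKN1A, CREBL2 and APOLD1 beside CDKN1B, and FAF1 and C1orf185 beside CDKN2C had no H3K27me3 peak in any list. The interval of KRI1, whose start is 0.428 kb from CDKN2D, takes in the CDKN2D peak of replicate 2 of shPHF19L#4 and had no other H3K27me3 peak.

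MTF2 was the protein found at most of the inhibitor genes, and outside CDKN1C in replicate 2 only. In shCTR, 0 of 7 genes had an MTF2 peak in replicate 1, against 6.44% of protein-coding genes, and 6 of 7 in replicate 2, all but CDKN2B, against 53.1%. None had one in both, against 6.15%. In shPHF19L#4, 1 of 7 had a peak in replicate 1, against 11.5%, and 4 of 7 in replicate 2 (CDKN1C, CDKN2A, CDKN2C and CDKN2D), against 54.2%, and 1 of 7 in both, against 11.1%. CDKN1C was the gene that had MTF2 in both. The replicate 2 lists are the long ones, with 32254 peaks in shCTR and 34623 in shPHF19L#4, where replicate 1 has 2516 and 4216. Summed over the 7 intervals, MTF2 peaks covered 0 and 9844 bp in the shCTR replicates and 2762 and 8183 bp in those of shPHF19L#4, so the conditions overlapped.

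Outside CDKN1C, MTF2 peaks had scores at or above 29.4% to 65.2% of their list in shCTR replicate 2 and 9.63% to 66.2% in shPHF19L#4 replicate 2. In shCTR each contained an annotated start site. In shCTR replicate 2 the peak of CDKN1A had a score of 59.5 and contained 5 annotated start sites, and that of CDKN1B had 84.8 and contained 2. CDKN2A had a peak of 81.8 across the ARF start, from position -677 to 651 relative to it, CDKN2C one of 81.3 and CDKN2D one of 89.5. These 5 scores lay on both sides of the list's median of 72.0. In shPHF19L#4 replicate 2 the scores were 77.7 at CDKN2A, 53.3 at CDKN2C and 126 at CDKN2D, with a list median of 86.4, and CDKN1A and CDKN1B had no peak. Among peaks with a score of at least 100, the shCTR list of replicate 2 marked 1 of 7 genes (CDKN1C), against 28.4%, and the shPHF19L#4 list 2 of 7 (CDKN1C and CDKN2D), against 35.2%.

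CDKN2D and CDKN1A each had 1 peak of another kind. The H3K27me3 peak of CDKN2D, in replicate 2 of shPHF19L#4, was 949 bp wide with a score of 74.0, at or above 23.7% of its list, and lay from 572 to 1520 bp downstream of the start. Replicate 1 had no such peak. The nearest H3K27me3 peaks in the other lists, 17.3 to 17.7 kb upstream, lay in AP1M2, a neighbour that encodes an epithelial sorting adaptor. The PHF19 peak of CDKN1A, in replicate 2, lay at positions -7616 to -6664 relative to the annotated start, with a score of 76.2. It contained no start site of CDKN1A and had no counterpart in the EZH2, SUZ12 or H3K27me3 lists.

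Other genes of the cell cycle and of Polycomb gave a comparison in the same cells. Of 58 genes in 6 lists, 11 (19.0%) had H3K27me3 in both replicates of shCTR cells. Among all protein-coding genes that share was 15.0%, and it was 0 of 7 among the inhibitors. Among cyclins 3 of 9 had it, CCND2, CCND3 and CCNA1, and among cyclin-dependent kinases 2 of 5, CDK4 and CDK6. Of E2F and pocket proteins 1 of 13 had it, E2F7, a repressor of the E2F family. Of the p53 axis and growth arrest genes 1 of 8 had it, GADD45G, a stress-response gene. Among other cell cycle regulators the count was 0 of 7, and among Polycomb and demethylase genes 4 of 16, the Polycomb genes CBX2, CBX7, CBX8 and RING1. In a window of 2.5 kb around start sites the calls of E2F7 and RING1 were lost and 9 of the 11 genes were left. Whether another gene's start lay nearer to a peak was checked for the inhibitors only. A peak in the interval of a listed gene may thus belong to a neighbour.

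SUZ12 peaks in both shCTR replicates were found at 2 of the 58 genes and at 0.283% of all protein-coding genes, and EZH2 peaks at 5 of the 58 and at 2.51%. CCND2, which encodes cyclin D2, had PHF19, EZH2, SUZ12, H3K27me3 and MTF2 peaks in both shCTR replicates, and CBX8, a Polycomb gene, did too. CDK6, a kinase that INK4 proteins inhibit, had PHF19, EZH2, H3K27me3 and MTF2 in both. CDK4, the other such kinase, had EZH2 and H3K27me3 in both. BMI1, a Polycomb repressor of the p16INK4A and ARF locus, had PHF19 and MTF2 in both but no H3K27me3 in shCTR. The other 3 kinases of the list had no EZH2, SUZ12 or H3K27me3 peak in either shCTR replicate.

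H3K27me3 was in both replicates of shPHF19L#4 but not in both of shCTR at 0 of the 58 genes, against 7.22% of all protein-coding genes. The reverse was found at CBX7, which had peaks in replicate 2 alone of shPHF19L#4, so the lists held 11 genes with H3K27me3 in both replicates of shCTR and 10 in those of shPHF19L#4. MTF2 was in both replicates of shPHF19L#4 but not in both of shCTR at 3 of the 58 genes (5.17%), CCNA1, CDK4 and GADD45G, against 5.64% of all protein-coding genes. The reverse was found at CBX2, which had no MTF2 peak in replicate 1 of shPHF19L#4. The largest EZH2 difference between the authors' group means ran from 0.73 to 1.81 over the 9 listed genes with an EZH2 region: it was 1.81 at BMI1, 1.79 at CDK4, 1.38 at GADD45G, 1.06 at CCND2 and 0.73 at CDK6, against 1.94 at CDKN1C. For MTF2, over 7 listed genes, it ran from 0.53 to 1.74, with 1.74 at BMI1, 1.19 at CDK4 and 0.64 at CDK6, against 1.36 at CDKN1C. An H3K27me3 region was found at 3 of the 58 genes (5.17%), against 4.02% of all protein-coding genes. There the difference ran from 1.06 at CDK4 to 1.13 at CBX2, against 1.28 at CDKN1C.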

How the data were processed

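ChIP-seq of DU145 cells was analysed from peak lists and DiffBind tables. The authors mapped reads with Bowtie to hg19 (with dm3 where fly chromatin was spiked in), kept uniquely mapped reads and ran MACS separately for each replicate, with a control sample. In 11 lists, the value of a peak is the deposited MACS score, of 50 or more. The PHF19 list of replicate 1 holds the tag counts that the authors gave per peak (26 to 1035), and both MTF2 lists of that replicate give positions alone. Levels are log2 read concentrations, averaged per group by the authors with DiffBind, for regions under their P value threshold; no spike-in scaling is named for them. The tables' overall mean, fold change, P value and FDR columns were not used, and input, IgG and RNA-seq data and peak lists of PHF19, EZH2 and SUZ12 in shPHF19L#4 cells were not analysed here.

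Intervals came from GENCODE release 44 on GRCh37, without the mitochondrial genes, and a peak counted with an overlap of at least 1 bp. Positions are counted from 1. Distances run from the outermost annotated start of a gene. Differences are shPHF19L#4 minus shCTR. Overlap functions were tested on simulated regions. The genes named were the 7 inhibitors, their nearest protein-coding neighbours, and listed genes with PHF19, EZH2 or H3K27me3 in both shCTR replicates; 1 gene of these lists is not reported here. The members and lists were chosen with earlier results of these data known. Alternatives were other intervals, a 500 bp overlap, a score of 100, single or either replicates, the gene with the nearest start, and shorter background genes. Python 3.11.15, numpy 2.4.6 and matplotlib 3.10.9 were used.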

Additional observations from a re-analysis of the deposited data

How the results depend on the processing

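Of 76 alternative counts of inhibitor genes, 67 were within 1.5 times the main count and 9 were not. A main count of 0 has no ratio, and a count that stayed at 0 was taken as within, so the tally is no measure of stability for those counts. EZH2, SUZ12 and H3K27me3 in shCTR gave 0 genes under every alternative run, and the DiffBind counts did not move. No alternative lengthened the upstream reach or lowered the authors' threshold, so a count of 0 had little room to rise. Leaving out a replicate gave 0 to 1 genes for PHF19, 1 to 2 for H3K27me3 in shPHF19L#4, 0 to 6 for MTF2 in shCTR and 1 to 4 for MTF2 in shPHF19L#4, the higher value each time from replicate 2 alone. A peak in either replicate gave the same higher values, 1, 2, 6 and 4. With a score of at least 100, H3K27me3 in shPHF19L#4 was at 0 genes in both replicates, since the replicate 1 peak of CDKN1C scores 91.2. The difference in covered length for H3K27me3 was 3044.5 bp, and 1247.5 bp with that score. For MTF2 it was 550.5 bp and reversed to -1661 bp in replicate 2 alone (2762 bp in replicate 1), and the cause was not tested. With a score of at least 100 it was 2474 bp, a filter that acted on replicate 2 alone, since the MTF2 lists of replicate 1 have no scores. Among genes whose interval was no longer than that of the longest inhibitor, background shares were 0.579 to 0.945 times the main ones. Of the 14 shares, 1 moved by over 1.5 times, that of SUZ12 in shCTR replicate 1, from 1.22% to 0.706%. Added after seeing the data, a window of 2.5 kb around start sites left 9 of the 11 listed genes with H3K27me3 in shCTR. No fit with a replicate block was made, as no result comes from a test; differences within a replicate number are those given for replicates 1 and 2. Depth is unknown, and absence of a peak cannot be told apart from a signal under the authors' threshold.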
